A study of Mus musculus with 7 samples.

Results

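The 9 genes described here, Shank1, Shank2, Shank3, Homer1, Homer2, Homer3, Dlg4, Dlgap1 and Dlgap2, encode scaffold proteins of the postsynaptic density. They were chosen by name and not by a measured value, though earlier results of these data were known. DNA methylation was read with MeDIP-seq, in which an antibody against 5-methylcytosine pulls down methylated DNA fragments before sequencing. An active region is a stretch of the genome where at least 1 library had a called interval of enriched fragments. A region was counted for a gene when it overlapped the gene body in RefSeq, extended by 1 kb at each end. By this rule 145 of 133337 active regions belonged to the 9 genes. The neurons came from the hippocampi of C57BL/6J embryos at stage E18.5 and were kept for 11 days in vitro. The untreated group had 3 libraries, and the KCl group had 3 libraries from cultures exposed to 55 mM KCl for 4 h. All cultures had received AraC, an inhibitor of dividing cells, at their medium changes. The labels do not say whether replicates were separate cultures, so the p-values reflect only how much these libraries vary, and part of that variation may be technical. MeDIP-seq reads DNA and gives no marker RNA levels, so the labelled cell type was not checked against its markers.

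The postsynaptic density is the protein mesh under the membrane of excitatory synapses. Dlg4 (PSD-95) binds glutamate receptors and other membrane proteins, the Dlgap proteins (GKAP, or SAPAP) link Dlg4 to the Shank proteins, and Shank proteins bind Homer proteins, which reach on to group I metabotropic glutamate receptors. Methylation of cytosines, mostly in CpG pairs, is common inside genes and is usually low in CpG-rich promoters. High KCl depolarises neurons and opens voltage-gated calcium channels, a standard way to switch on genes that respond to activity, of which the short Homer1a form of Homer1 is one.

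The libraries differed in how much was called. Untreated libraries held 72947 to 87302 intervals in all and KCl libraries 34834 to 93470, and KCl replicate 3 had the fewest. The median height of the regions called in all 6 libraries was 24 to 29 in the untreated libraries and 29, 22 and 16 in KCl replicates 1, 2 and 3. Height is the whole number deposited for the summit, the point of strongest enrichment in an interval. Whether heights were scaled between libraries is not given in the sources used here, and read totals are not either. With the depth unknown, heights carry no counting intervals.

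The start sites are shown first, because none of the listed ones was enriched. RefSeq promoter windows of GRCm38.p6, whose coordinates are those of mm10, were matched for 6 of the 9 genes. These were Shank3, Homer1, Homer2, Homer3, Dlg4 and Dlgap1, with 11 windows of 300 bases in all, and Shank1, Shank2 and Dlgap2 had no entry in the table used. Of the 11 windows, 0 overlapped an active region of any library, beside 4.85% of all 32851 windows. The sequences below are the 250 bases before 4 of these starts, written 5′ to 3′ in the direction of the gene with every CpG in capitals. Shank3 at chr15:89499358-89499607 (plus strand), the first start of Homer1 at chr13:93303507-93303756 (plus strand) and the first start of Homer2 at chr7:81706926-81707175 (minus strand) show the CpG-rich kind. The second start of Homer1 at chr13:93307784-93308033 (plus strand) shows one with fewer CpG than these.
Shank3: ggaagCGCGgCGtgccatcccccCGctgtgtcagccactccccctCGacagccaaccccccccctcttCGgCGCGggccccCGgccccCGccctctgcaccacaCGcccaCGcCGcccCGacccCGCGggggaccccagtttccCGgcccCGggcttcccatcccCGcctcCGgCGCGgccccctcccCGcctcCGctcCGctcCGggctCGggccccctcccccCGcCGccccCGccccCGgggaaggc
Homer1, first start: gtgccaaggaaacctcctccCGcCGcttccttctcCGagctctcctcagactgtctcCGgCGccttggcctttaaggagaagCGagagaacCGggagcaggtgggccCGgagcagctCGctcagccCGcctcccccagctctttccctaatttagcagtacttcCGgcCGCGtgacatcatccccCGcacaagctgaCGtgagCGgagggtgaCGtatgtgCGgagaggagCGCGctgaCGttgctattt
Homer2, first start: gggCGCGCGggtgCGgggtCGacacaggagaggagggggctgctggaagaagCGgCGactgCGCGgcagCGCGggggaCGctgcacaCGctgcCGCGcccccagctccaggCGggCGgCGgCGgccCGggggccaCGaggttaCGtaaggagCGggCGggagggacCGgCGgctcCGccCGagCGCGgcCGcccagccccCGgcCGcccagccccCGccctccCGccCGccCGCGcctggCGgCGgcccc
Homer1, second start: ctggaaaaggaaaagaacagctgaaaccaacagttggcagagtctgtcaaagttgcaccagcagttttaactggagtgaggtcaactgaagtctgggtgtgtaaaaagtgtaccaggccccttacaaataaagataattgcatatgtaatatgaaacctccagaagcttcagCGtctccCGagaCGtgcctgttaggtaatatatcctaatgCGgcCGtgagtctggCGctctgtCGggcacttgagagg

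These 250 bases held 31 CpG at Shank3, 21 at the first start of Homer1 and 40 at the first start of Homer2, against 7 at the second start of Homer1. Over the full windows of 300 bases the members had a median of 15 CpG, and the median over all windows was 7. The richest windows were Homer2 with 49, Shank3 with 40 and Homer1 with 26, and the poorest was the second start of Homer2 with 3. The background share depended on this number. Of all windows with 30 CpG or more, 1.38% overlapped an active region, of those with 20 to 29 2.86%, of those with 15 to 19 5.01%, and of those with 10 to 14 11.0%. The share was 9.48% at 5 to 9 CpG and 2.97% at 0 to 4, so it was lower at both ends of the range. With shares this low, 0 of 11 does not set the members apart from other windows. Within 1 kb of a window, 2 of 11 had a region, both at Homer2, beside 14.0% of all windows. One lay 796 bp upstream of the first Homer2 start and was called in 2 libraries, both untreated, and it also overlaps Gm32579. The other lay 764 bp upstream of the second start and was called in 3 libraries.

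The nearest region to the other starts was 2281 bp downstream at Homer3, 3468 bp upstream at Shank3, and 28645 bp and 24368 bp downstream of the 2 Homer1 starts. For Dlg4 the distances were 4628, 6030 and 6975 bp, and for Dlgap1 57145 and 30623 bp. The CRE half-site TGACG, bound by the activity-regulated factor CREB, was searched on both strands (CGTCA on the other) in the 250 bases before each start. The first Homer1 start held 3 copies, the third Dlg4 start held 1, and the other 9 windows held 0. Of all windows 17.8% held at least 1 copy and 0.688% held 3 or more. The whole palindromic site TGACGTCA, in which half-sites on both strands overlap, was in 0 of the 11 windows and in 1.55% of all. A match of letters is a description and not a bound site.

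**Figure D1:**
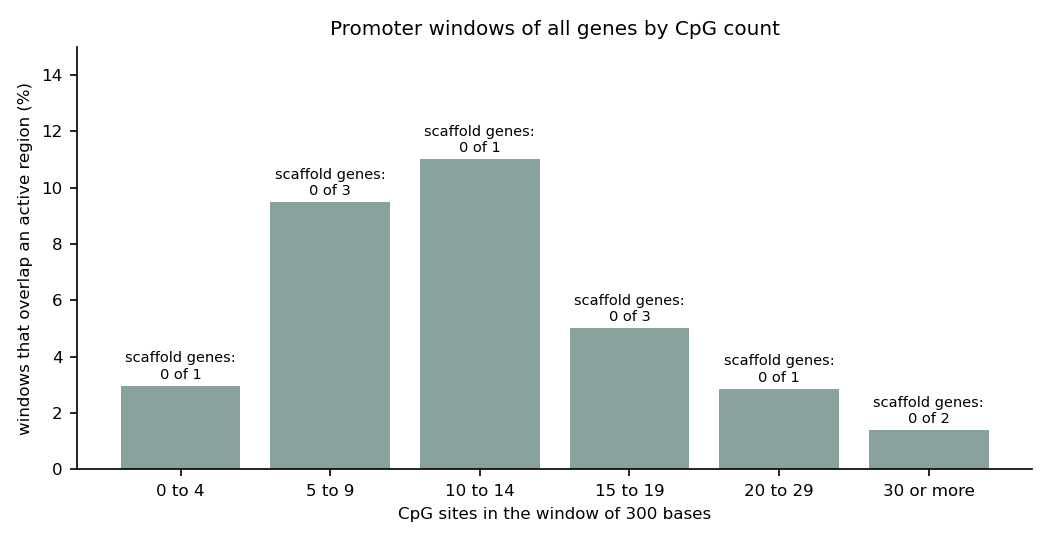
Percent of RefSeq promoter windows of 300 bases that overlap an active region (vertical axis), by the number of CpG in the window (horizontal axis), with 1 bar per CpG class over all 32851 windows. The text above each bar gives the members' windows of that class, 0 of 11 in all, and the bars run from 1.38% at 30 CpG or more to 11.0% at 10 to 14.

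No enriched region overlapped the window of a listed start, and all but 1 of the 145 overlapped the gene body itself. Shank1, Shank2 and Dlgap2 have no listed start, so their regions could not be placed against one. Density was taken as active regions per 100 kb of gene body and flanks. The median over the 9 genes was 10.1, beside 4.84 over 21887 protein-coding genes and 5.32 over the 4945 of at least 50 kb. Homer3 (11.5 kb) and Dlg4 (28.3 kb) are shorter than 50 kb, so the last median is not like for like. Over 31 other postsynaptic genes the median was 4.04, over inhibitory scaffold genes 7.21 and over presynaptic ones 3.22. Lists of cell type marker genes had medians of 8.02 to 15.1. With all members summed, where the long genes weigh most, the density was 5.94. By gene it ran from 1.93 in Homer1 to 22.3 in Homer3. Shank1 had 16.9 (9 regions), Dlg4 16.5 (5 regions), Shank3 14.4 (10 regions) and Homer2 10.1 (11 regions). The 3 longest genes lay below these, with 6.45 in Dlgap2 (49 regions), 5.78 in Shank2 (26 regions) and 3.51 in Dlgap1 (30 regions). Homer1 and Homer3 had only 2 and 3 regions, so their densities rest on few calls. Of the 9 Shank1 regions, 4 were called in 1 library and 2 in all 6. Most Dlg4 regions lay close together in 1 stretch, described below. Counted over regions called in all 6 libraries only, the summed density was 1.43 and the median over the 9 genes was 1.93. By the same count the median was 1.02 over genes of at least 50 kb and 0 over all protein-coding genes.

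**Figure D2:**
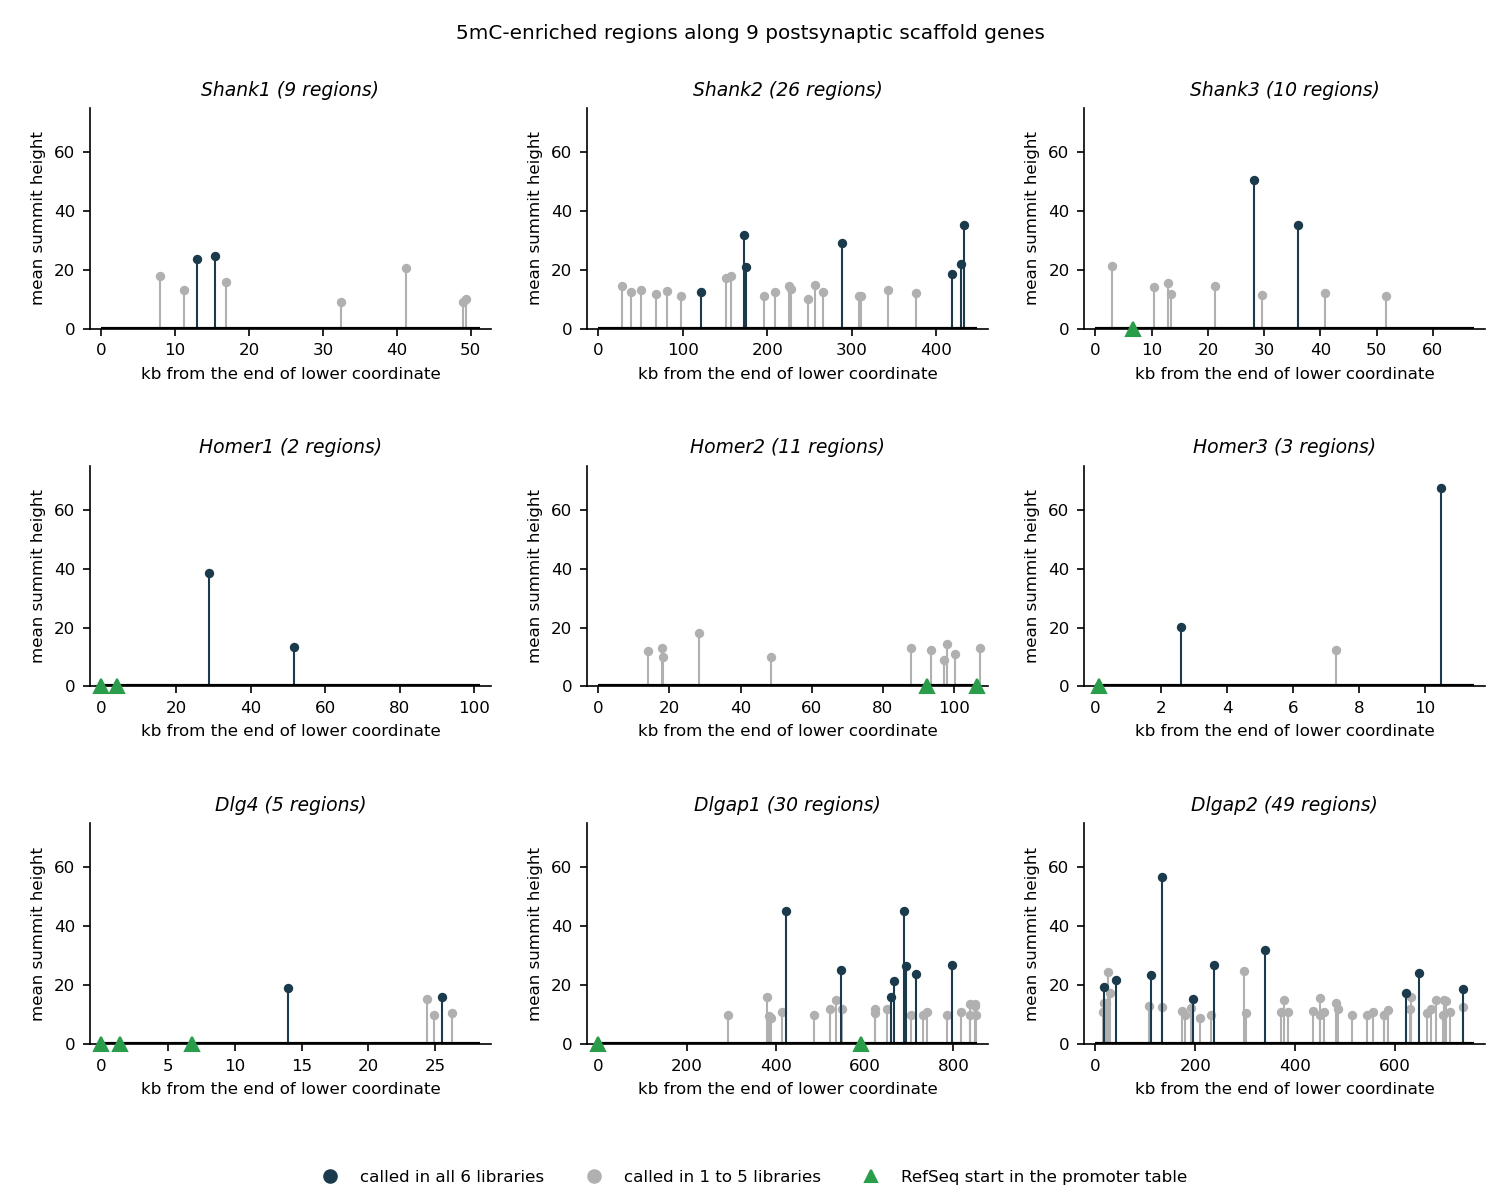
Active regions along each of the 9 genes, 1 panel per gene, with the position in kb from the end of lower coordinate (horizontal axis) and the mean summit height over the libraries that called the region (vertical axis, as deposited). Dark points were called in all 6 libraries, grey ones in 1 to 5, and triangles mark the starts of the promoter table; the first 293 kb of Dlgap1 are empty and 4 of 5 Dlg4 regions crowd at the far end.

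Regions were not spread evenly inside the genes. In Dlg4, which is on the plus strand, 4 of 5 regions lay at chr11:70041342-70043818, near the 3′ end of the gene. In Shank2 the region of greatest length among all members, 1731 bp, lay at chr7:144409859-144411589, 96.6% of the way along the gene from its lower coordinate. It merged 2 or 3 intervals in each library, and 0.0405% of all active regions were as long. Dlgap1, also on the plus strand, had no active region in its first 293 kb. The stretch without a region ran from chr17:69911929 to chr17:70261924, 350.0 kb in all, and 68 of 130863 stretches between neighbouring regions on the autosomes were as long (median 7.99 kb). Among 555 autosomal protein-coding genes long enough to hold the part inside Dlgap1, 15 had an empty stretch of that length. Genes of at least 500 kb with at least 10 regions and a listed start, which leaves out Dlgap2, were divided into 3 equal parts. The part nearest the start held a median of 32.1% of the regions over 163 genes. It held 0 of 30 in Dlgap1, the only 1 of these genes with none. This comparison was chosen after the map had been seen and has no test.

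The share of libraries that called a region was close to that of all active regions. Of the 145 regions, 35 were called in all 6 libraries (24.1%, beside 20.5% of all active regions) and 40 in 1 library (27.6%, beside 29.3%). Of the 15 regions called in 5 libraries, 12 were missed in KCl replicate 3 (80.0%, as in 80.0% of all such regions). Median length was 380 bp against 357 bp over all active regions, and among regions called in all 6 libraries the median height was 23.8 against 24.0. By gene, Dlgap2 had 10 regions called in all 6 libraries, Dlgap1 8, Shank2 7, and Shank1, Shank3, Homer1, Homer3 and Dlg4 2 each. Homer2 had none among its 11 regions. Its intervals numbered 5, 6 and 6 in the untreated libraries and 5, 2 and 0 in KCl replicates 1, 2 and 3, so the last 2 KCl libraries lay below all untreated ones and the first did not. A region without a call can still carry fragments below the calling limit.

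Each library's intervals at the 9 genes followed how much was called in that library. The untreated libraries had 92, 102 and 90 intervals there and the KCl libraries 106, 69 and 46. KCl replicate 1 was the highest of all 6 and KCl replicate 3 the lowest, so the groups overlapped. The means were 94.7 ± 6.43 and 73.7 ± 30.3 (SD over 3 libraries), and the difference of -21.0 was smaller than the KCl spread (exact permutation p = 0.4, two-sided, where 0.1 is the smallest possible). Leaving out KCl replicate 3 brought it to -7.17, and leaving out KCl replicate 1 to -37.2. As a share of all intervals of the library, the genes held 0.106%, 0.117% and 0.123% in the untreated libraries and 0.113%, 0.113% and 0.132% with KCl. These shares overlapped too, at 0.115% ± 0.00901 against 0.120% ± 0.0108 (SD over 3 libraries; two-sided exact permutation p = 0.7). With only the 34834 highest intervals of each library, the number in the smallest library, the members had 38, 45 and 41 intervals without KCl and 36, 41 and 46 with it.

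**Figure D3:**
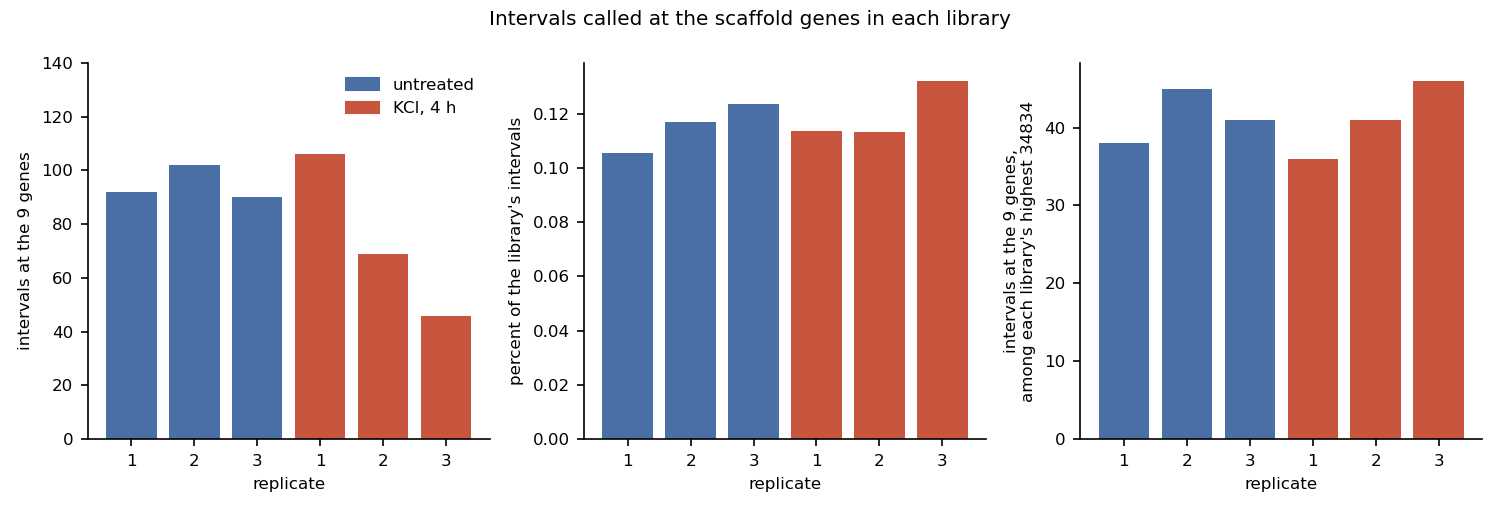
Bars for each of the 6 libraries give the intervals at the 9 genes as a number (left), as a percent of the library's intervals (middle) and as a number among each library's 34834 highest intervals (right). On the left the KCl libraries span 46 to 106, while the shares lie between 0.106% and 0.132% and the right-hand numbers between 36 and 46.

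No region of the scaffold genes passed the test for a difference between KCl and untreated cultures. Of the 35 regions called in all 6 libraries, 29 had a mean height of at least 18.7 (the 25th percentile) and were tested. By limma, 0 of the 29 passed an adjusted p of 0.05 (0% of all 20537 tested regions did; lowest adjusted p of a member 0.932). At an unadjusted p under 0.05, 0 members were lower (1.12% of all tested regions were) and 0 were higher (0%), and after centring of each library on its median 0 were higher (2.1%) and 0 lower (1.35%). The median log2 change with KCl was -0.24 over the members and -0.25 over all tested regions, and 28 of 29 members lay below 0 (90.6% of all). Without KCl replicate 3 the members' median was -0.03, and without KCl replicate 1 it was -0.41. Changes of single regions are therefore given after subtraction of the median over all tested regions and are called relative log2 changes.

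On that scale the members centred on 0. Their median was 0.01, with 15 regions above 0 and 14 below (50% of all tested regions were above). The values ran from -0.27 to 0.28 with SEs of 0.15 to 0.25, and all 29 lay between the 5th and 95th percentile of all tested regions, -0.32 and 0.31. The 10 Shank regions had a median of 0.02, the 15 Dlgap regions 0.03, the 3 Homer regions -0.12 and the Dlg4 region -0.07. Mean height over the 35 regions was 30.1, 33.0 and 25.6 in the untreated libraries and 33.1, 26.2 and 17.4 with KCl. The groups overlapped, with means of 29.6 ± 3.73 and 25.6 ± 7.90 (SD over 3 libraries; two-sided exact permutation p = 0.7). Divided by the library's median height over all regions called in all 6 libraries, the member mean was 1.12 ± 0.0477 in untreated and 1.14 ± 0.0520 in KCl libraries (SD over 3 libraries; two-sided exact permutation p = 0.6). The difference in mean height was -4.00 with all libraries and 0.0952 when KCl replicate 3 was left out.

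**Figure D4:**
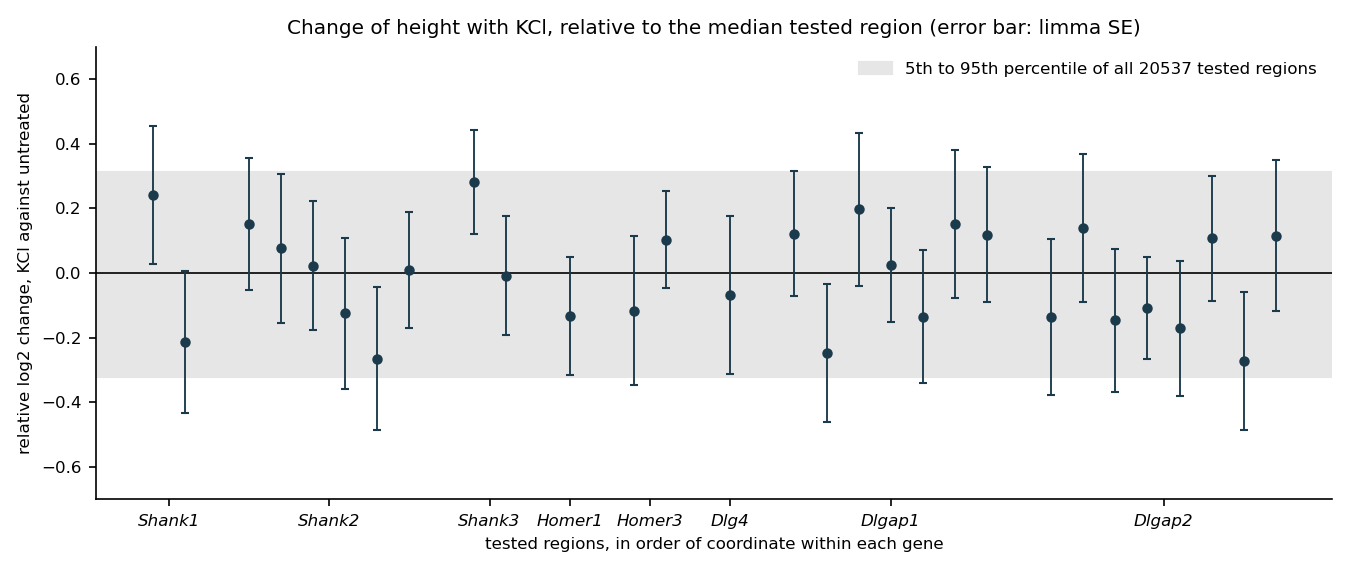
Relative log2 change with KCl of each of the 29 tested regions (vertical axis, log2(height + 1) scale, error bars limma SE), in order of coordinate within each gene (horizontal axis), over a grey band from the 5th to the 95th percentile of all 20537 tested regions. All 29 points lie inside the band, which runs from -0.32 to 0.31.

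Read as raw heights, 2 of the 29 regions were lower in every KCl library than in every untreated one (4.14% of all tested regions were) and 0 were higher in every KCl library (0.0292%). The 2 were in Shank1 and Dlgap1. After division by each library's median height, neither of these stood apart, and 1 other region was lower in every KCl library (3.3% of all) and 1 higher (5.02%), in Shank2 and Shank1. Counts of 1 or 2 among 29 regions are near these background shares.

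The Shank genes encode the large master scaffolds that join the upper and lower layers of the density. In Shank1 the region at chr7:44324078-44324532 was the highest of the gene and had its lowest limma p for heights as deposited. Its heights were 28, 28 and 30 untreated and 20, 24 and 18 with KCl. All KCl libraries lay below all untreated ones, at 20.7 ± 3.06 against 28.7 ± 1.15 (SD, n = 3 each). The relative log2 change was -0.21 (SE 0.22; limma adjusted p after centring = 1.00), and without KCl replicate 1 it was 0.02. A neighbour at chr7:44321518-44322075 had 23, 24 and 23 untreated and 30, 26 and 16 with KCl. The first 2 KCl libraries were above the untreated range and the third below, so raw heights overlapped. Relative to the library medians it was 0.885, 0.828 and 0.958 untreated and 1.03, 1.18 and 1.00 with KCl, all KCl values above all untreated ones (relative log2 change 0.24, SE 0.21; limma adjusted p after centring = 1.00). After centring, this neighbour had the lower unadjusted limma p of the 2 regions, 0.234 against 0.369.

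Shank2 had its highest region in the long stretch named above, with heights of 34, 44 and 36 untreated and 40, 31 and 26 with KCl. The groups overlapped and the relative log2 change was 0.01 (SE 0.18). Just before it, chr7:144406970-144407405 had the lowest p of the gene, with 26, 27 and 23 untreated and 25, 19 and 11 with KCl. KCl replicate 1 lay within the untreated range and the other two below it, and the relative log2 change was -0.27 (SE 0.22; limma adjusted p after centring = 1.00).

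Shank3, the gene deleted in Phelan-McDermid syndrome, had one of the highest regions of the set. At chr15:89520849-89521461 heights were 45, 68 and 38 untreated and 64, 49 and 40 with KCl, 50.3 ± 15.7 against 51.0 ± 12.1 (SD, n = 3 each). Raw heights overlapped fully while most other regions were lower with KCl, which placed its relative log2 change of 0.28 (SE 0.16) at the top of the 29. Its p after centring, 0.0704, was the lowest of the 29 tested member regions, with a limma adjusted p of 1.00. With the replicate block, which compares libraries of the same number, it was 0.0375, and this was the only 1 of the 29 regions higher at an unadjusted p under 0.05 (3.02% of all tested regions). The region also overlaps Gm15609, so its signal cannot be told apart between the 2 genes. A second region at chr15:89528611-89529569, of 959 bp, had 41, 47 and 28 untreated and 40, 30 and 26 with KCl, with overlapping groups and a relative log2 change of -0.01 (SE 0.18).

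**Figure D5:**
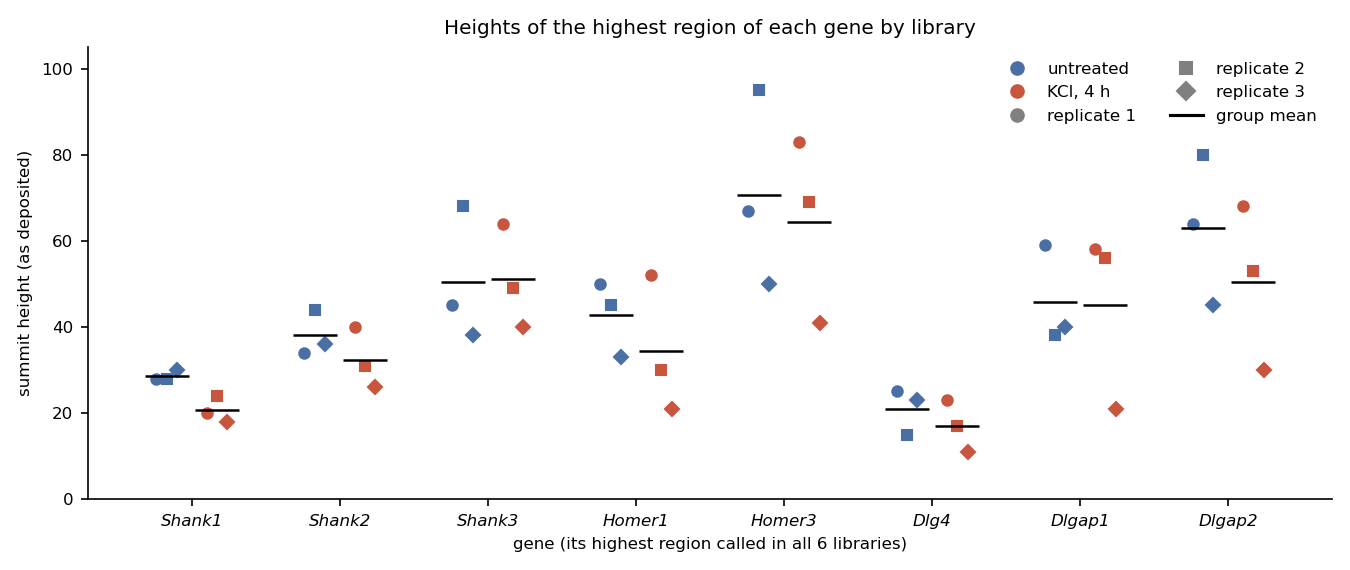
Summit height, as deposited (vertical axis), of the highest region called in all 6 libraries for each of 8 genes (horizontal axis; Homer2 has none), with 1 point per library, a shape for each replicate number and black lines for group means (n = 3 each). Only in Shank1, among these 8 regions, do the untreated points (28 to 30) and the KCl points (18 to 24) not overlap.

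Homer proteins bind Shank and metabotropic receptors through an EVH1 domain. Homer1, whose short Homer1a form is made on neuronal activity, had 2 regions, both called in all 6 libraries and both inside the gene. At chr13:93332402-93332961 heights were 50, 45 and 33 untreated and 52, 30 and 21 with KCl. KCl replicate 1 was the highest of the 6 libraries and the other two were the lowest, and the relative log2 change was -0.13 (SE 0.18; limma adjusted p after centring = 1.00). The second, at chr13:93355263-93355497, had 9, 12 and 14 untreated and 18, 17 and 11 with KCl. These raw heights overlapped through KCl replicate 3 and their mean of 13.5 was below the height filter. Divided by the library medians, the values were 0.346, 0.414 and 0.583 untreated and 0.621, 0.773 and 0.688 with KCl, which did not overlap. Fitted without the filter, its relative log2 change was 0.59 (SE 0.26; limma p after centring = 0.0186, adjusted 1.00). The shares given over all tested regions leave out regions below the filter, so no background share stands beside these values. The 2 Homer1 regions thus had relative changes of opposite sign, and neither passed the test.

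In Homer2 the region called most often, at chr7:81628574-81629001, had 14, 28 and 13 untreated, 19 and 17 in KCl replicates 1 and 2, and no call in KCl replicate 3. The called KCl heights lay within the untreated range. Another Homer2 region, at chr7:81618235-81618456, was called in every untreated library (9, 19 and 11) and in no KCl library. One Dlgap2 region, at chr8:14832210-14832483, shared this pattern (16, 11 and 11), which makes 2 of 145 (1.38%, beside 1.01% of all active regions), and 0 had the reverse (0.0367% of all). Right after the Homer2 region, chr7:81618472-81618778 was called in KCl replicate 1 alone (height 10), so that stretch was not without a KCl call. Homer3, the shortest of the 9 genes, held the highest region of the whole set. At chr8:70292934-70293773, which also overlaps Ddx49, heights were 67, 95 and 50 untreated and 83, 69 and 41 with KCl. They overlapped, at 70.7 ± 22.7 against 64.3 ± 21.4 (SD, n = 3 each; relative log2 change 0.10, SE 0.15), and their mean was above 96.4% of all regions called in all 6 libraries. The other tested Homer3 region, chr8:70285280-70285755, had 21, 26 and 20 untreated and 27, 18 and 10 with KCl, with a relative log2 change of -0.12 (SE 0.23).

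Dlg4 had 1 tested region, near the middle of the gene at chr11:70030957-70031517. Its heights were 25, 15 and 23 untreated and 23, 17 and 11 with KCl. Only KCl replicate 3 lay below the untreated range, and the relative log2 change was -0.07 (SE 0.25).

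The Dlgap genes are the longest of the set with Shank2. In Dlgap1 the highest region, chr17:70392664-70393359, which overlaps Stmn1-rs2, had 59, 38 and 40 untreated and 58, 56 and 21 with KCl. The first 2 KCl libraries were near the top of the untreated range and the last was far below it (relative log2 change 0.12, SE 0.19). At chr17:70515949-70516622, the Dlgap1 region with the lowest p, heights were 35, 29 and 25 untreated and 23, 21 and 18 with KCl. Every KCl height was below every untreated one, 20.7 ± 2.52 against 29.7 ± 5.03 (SD, n = 3 each), and the relative log2 change was -0.25 (SE 0.21; limma adjusted p after centring = 1.00).

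In Dlgap2 the highest region, chr8:14229764-14230195, had 64, 80 and 45 untreated and 68, 53 and 30 with KCl. The groups overlapped, and the relative log2 change was -0.11 (SE 0.16). The region with the lowest p, chr8:14743102-14743586, had 25, 35 and 25 untreated and 28, 18 and 14 with KCl. KCl replicate 1 lay within the untreated range and the relative log2 change of -0.27 (SE 0.21; limma adjusted p after centring = 1.00) was the lowest of the 29. Below the height filter, chr8:14716771-14717154 had 25, 21 and 20 untreated and 14, 14 and 10 with KCl. These groups did not overlap, and in the fit without the filter its relative log2 change was -0.53 (SE 0.24; limma p after centring = 0.0439, adjusted 1.00). This region was singled out after its values were seen. How many of all regions below the filter have values like these was not counted.

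Other genes of the postsynaptic density gave no call either. Of 31 further scaffold and signalling genes, 30 had a region (65.3% of all protein-coding genes did, and 95.1% of those of at least 50 kb), and Arc, the activity-induced gene, had none. Of their 68 tested regions 0 passed by limma in either direction (0 at an unadjusted p under 0.05, lowest adjusted p 0.932), 38 lay above 0 and 30 below, and the median relative log2 change was 0.03. The lowest p for heights as deposited belonged to a region of Dlgap4, a relative of Dlgap1, at chr2:156701017-156701649. Its heights were 31, 37 and 23 untreated and 25, 17 and 17 with KCl. KCl replicate 1 lay within the untreated range (relative log2 change -0.35, SE 0.21; limma adjusted p after centring = 1.00). Dlg2 (PSD-93) followed with -0.32 (SE 0.22) and Camk2b, a subunit of the calcium-dependent kinase of the density, with -0.26 (SE 0.22). For inhibitory scaffolds 0 of 5 tested regions passed (4 above 0, median 0.10) and for presynaptic scaffolds 0 of 30 (10 above 0, median -0.05). Differences between these lists were not tested.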

How the data were processed

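MeDIP-seq tracks of 3 untreated and 3 KCl libraries were used, and 1 pooled input library was not analysed here. A service company made the libraries, per the labels' protocols. The submitters' processing notes name BWA, SICER and mm10, with no role or version. Per the file headers, the authors deposited 13 tracks: called intervals and summit heights for each library, and the active regions of all libraries. Heights deposited by the authors are whole-number values from 6 to 421 with no stated unit. Read totals, filters, extension and scaling: not given in the sources used here.

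The 9 genes and all lists were chosen with earlier results of these data known. Gene and promoter positions came from RefSeq (GRCm38.p6), without exons. Each active region took its highest summit per library. Regions called in all 6 libraries whose mean height reached the 25th percentile were tested as log2(height + 1), which understates changes of low regions, with limma 3.58.1 in R 4.3.3 (variance trend, two-sided, Benjamini-Hochberg over all tested regions, threshold 0.05). The test was run beforehand on simulated data with 200 changed regions, all among the higher ones. Their changes were set far larger than the members' relative changes, so that run does not show whether small changes would be found. Since a region needs a call in all libraries to be tested, losses of a call do not enter the test. SEs, and p-values named as after centring, come from the fit after median centring. Counts of calls use heights as deposited unless centring is named. Values per library were compared by exact permutation tests (numpy 2.4.6). For each member the region of greatest mean height and that with the lowest limma p for heights as deposited, before centring, are named.

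Same-numbered libraries deviated together from their group means (r = 0.11, 0.11 and 0.11, against -0.09 to -0.01 for different numbers). By a limit of 0.1 the numbers pair the libraries, although what a number marks is not in the labels. The main limma fit and the permutation tests leave this pairing out, and a replicate block was run as an alternative. Deviations sum to 0 in each group, which pushes the other correlations below 0 by construction.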

Additional observations from a re-analysis of the deposited data

How the results depend on the processing

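No member region passed limma's threshold (0 of 27 to 37 tested) under a pseudocount of 5, no height filter, median centring, mean summit heights, gene bodies alone, a replicate block, or with any 1 library left out. The lowest adjusted p of a member was 0.198, without KCl replicate 1, where 7 of 28 regions were lower at an unadjusted p under 0.05 (20.8% of all tested regions were). The replicate block changed no call (lowest adjusted p 0.857, and 0.948 with centring, where 1 region, in Shank3, was higher at an unadjusted p under 0.05). It left the differences in mean height, intervals and share at -4.00, -21.0 and 0.00430 percentage points (exact sign-flip p = 0.5 each). The members' median log2 change ran from -0.41 to -0.03 with 1 library left out and was 0.02 after centring. The difference in mean height became 0.0188 relative to library medians and ranged from -7.79 to 0.0952 with 1 library left out. The interval difference ranged from -37.2 to -7.17. The share difference was -0.000957 with equal numbers of intervals and ranged from -0.00195 to 0.00836. The summed density was 1.43 for regions called in all 6 libraries, a smaller set by construction. For single regions the relative log2 change of the long Shank2 region (0.01) became -0.0112 without the filter and -0.13 with mean summits. With 1 library left out, signs turned in that region (-0.0815 to 0.0613), Shank1 (-0.36 to 0.0162), the second Shank3 region (-0.13 to 0.0627), both Homer3 regions (-0.0305 to 0.26 and -0.22 to 0.00868) and the highest Dlgap1 region (-0.0843 to 0.36). The cause was not tested. The unknown depth limits what low regions can show.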

Other observations

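Across the 6 libraries, the members' mean log2(height + 1) relative to the library median was 0.08, 0.0049 and 0.01 untreated and 0.05, 0.09 and 0.01 with KCl. Among 1757 protein-coding genes with at least 3 regions called in all 6 libraries, those with the most similar profile were Ctnna2 (Pearson r = 0.96), Wdpcp (0.96), Zfp316 (0.94), Susd4 (0.94) and Igfbp7 (0.93). These are descriptions over 6 libraries of small deviations, picked from many genes.

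Regions also lay in genes that mark the cell types such a culture can hold. A region was called in 5 of 5 astrocyte marker genes, 4 of 5 oligodendrocyte, 4 of 5 microglia and 5 of 5 neuron marker genes, beside 65.3% of all protein-coding genes. By limma 0 of their 4, 8, 6 and 6 tested regions passed, and 0 had an unadjusted p under 0.05. Methylation enrichment at a marker gene does not measure how many cells of that type were present.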
